A study of Mus musculus with 3 samples.

Results

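The genes described are 8 members of the suppressor of cytokine signalling (SOCS) family, Cish and Socs1 to Socs7, and 2 members of the protein inhibitor of activated STAT (PIAS) family, Pias1 and Pias4. They were picked out by symbol in the deposited transcript tables, with earlier results of these data known. All 10 were found among the 55536 annotated mouse genes. Levels were measured in mouse bone-marrow-derived macrophages (BMDM), phagocytes that are cultured out of the marrow of C57BL/6J mice. Every library came from cells stimulated for 30 min with 100 ng/ml lipid A, the part of endotoxin that the receptor TLR4 recognises. RNA of the chromatin fraction, which holds transcripts still being made together with RNAs kept in the nucleus, was depleted of ribosomal RNA and sequenced as total RNA. The labels number 3 biological replicates with 1 shared donor record, which leaves unstated whether separate mice were used, and the spread between libraries may be technical. No unstimulated library was analysed here, so the values are levels after stimulation and not inductions.

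SOCS proteins are brakes on cytokine receptors that signal through Janus kinases (JAK) and STAT transcription factors. Each carries an SH2 domain, which binds phosphorylated tyrosines on receptors or kinases, and a SOCS box, which recruits elongins and a cullin ligase that marks bound proteins for degradation. Many SOCS genes are themselves targets of STATs, which closes a negative feedback loop. PIAS proteins act in the nucleus, where they bind STATs and other transcription factors and help to attach the small modifier SUMO to them.

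Depth was similar between libraries. Expected counts on annotated genes were 16301150, 17033725 and 16205704 in libraries 1 to 3, and the upper limit for a gene with a count of 0, which is 3 counts, equalled 0.184, 0.176 and 0.185 CPM, counts scaled to the depth of a library. Such limits and the intervals below cover counting error only. Starting RNA was 1 µg for library 1, 250 ng for library 2 and 500 ng for library 3, so the amount and the replicate cannot be told apart. All 6 macrophage markers examined were detected, with mean levels of 7.61 to 202 TPM, a relative abundance scaled for transcript length and summing to the same total in each library. None of 3 T cell, 3 B cell, 3 neutrophil and 3 dendritic cell markers reached a mean of 10 expected counts, and Cd3e, Cd3g and Ly6g among them had 0 counts in all libraries. The endothelial gene Pecam1, at 0.48 TPM on average, and the stromal genes Col1a1 and Col1a2 did reach a mean of 10 counts. The endothelial gene Cdh5 did not. Col1a1 reached at most 0.34 TPM in any library, from 2, 31 and 31 expected counts in libraries 1 to 3. Col1a2 reached at most 0.35 TPM, from 3, 25 and 27 expected counts. In bulk RNA, fewer cells of a type and less RNA per cell cannot be told apart.

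Several of these genes had much of their signal on annotated transcripts that keep intron sequence, so the points at which these transcripts run on from an exon into an intron are shown first. The boundaries are those of the 5 noncoding transcripts that run more than 20 bases past the end of an exon of a coding model and held at least 10% of their gene's abundance, 1 of Cish, 1 of Pias1 and 3 of Pias4. Each line reads 5′ to 3′ on the gene's strand, with 20 exon bases in lower case and the first 20 intron bases in capitals, from GENCODE M21 transcripts on build mm10.
Cish-202, chr9:107297015-107297054, + strand: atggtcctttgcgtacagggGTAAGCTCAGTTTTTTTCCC
Pias1-203, chr9:62923261-62923300, - strand: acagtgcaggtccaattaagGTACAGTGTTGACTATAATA
Pias4-202, chr10:81163765-81163804, - strand: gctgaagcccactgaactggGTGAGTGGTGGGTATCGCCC
Pias4-203, chr10:81154428-81154467, - strand: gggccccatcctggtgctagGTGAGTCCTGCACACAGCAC
Pias4-205, chr10:81155571-81155610, - strand: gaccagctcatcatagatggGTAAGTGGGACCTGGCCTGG
All 20 exon bases of each stretch are coding in a protein-coding model of the same gene, and in Cish they begin with the ATG start codon. Each intron starts with GT, the usual first bases of a splice donor, which these transcripts leave unspliced. The transcripts keep 2744, 374, 742, 75 and 89 intron bases after these boundaries in the order shown, up to their own end or the next exon of a coding model.

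All 10 genes were detected, meaning a mean of at least 10 expected counts over the 3 libraries, whereas 49.9% of all 22028 protein-coding genes were. Their mean levels ran over more than 2 orders of magnitude, with Socs3 highest and Socs1 lowest. Socs3 ranked 798th of 10983 detected protein-coding genes, with 92.7% of them below it. The median of the 8 SOCS genes was 3.70 ± 1.90 TPM (SD, n = 3 libraries), and that of all detected protein-coding genes was 4.94 ± 1.75 TPM. TPM is scaled for length, so levels of different genes can be set side by side within a library.

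**Figure D1:**
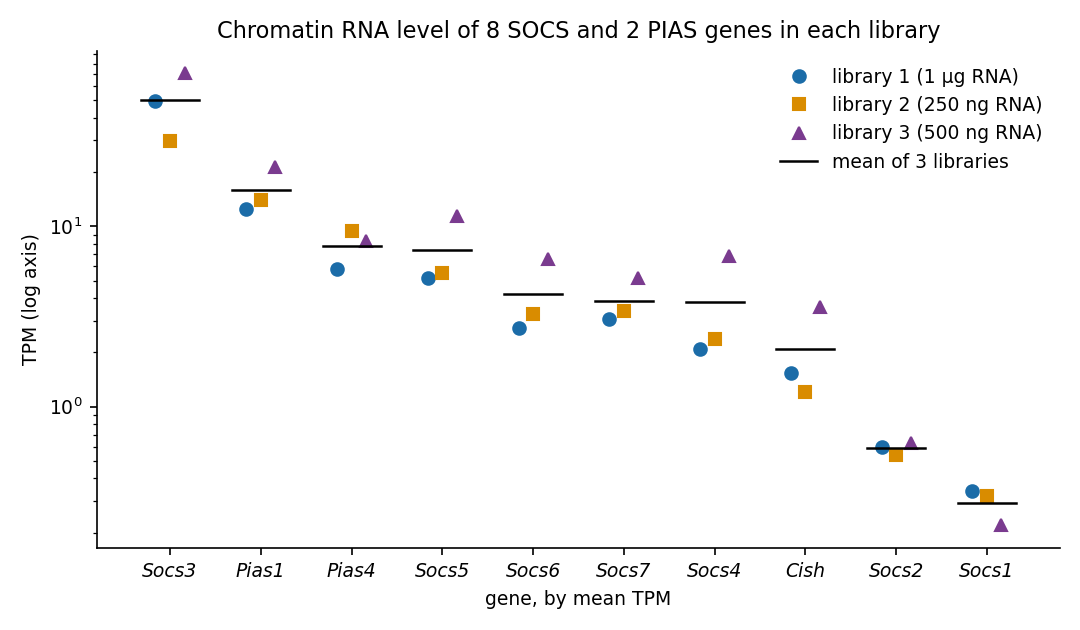
TPM of each gene (vertical log axis) in the 3 libraries (points), with genes ordered by mean TPM and black lines at the mean. Socs3 lies at 29.8 to 70.57 TPM, above every other gene in each library, and Socs2 and Socs1 lie below 1 TPM in all 3.

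Socs3 encodes the brake best known for blocking JAK kinases at the shared receptor subunit of interleukin 6, encoded by Il6st. The gene lies on chromosome 11 at 117966079-117970047 on the minus strand. It had 49.65, 29.8 and 70.57 TPM in libraries 1 to 3 (50.0 ± 20.4, SD, n = 3), from 3093, 1690 and 2640 expected counts. Library 3 was highest and library 2 lowest on the TPM scale, whereas on the CPM scale, with 190, 99.2 and 163 CPM, library 1 was highest. Socs3 alone held 76.2%, 64.2% and 67.1% of the summed TPM of the 8 SOCS genes, a mean of 69.2% ± 6.28.

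Socs1, on chromosome 16 at 10782240-10785536 on the minus strand, is the closest relative of Socs3 and shares with it a short region that blocks JAK kinase activity directly. It is known as a brake on interferon signalling. It had 0.34, 0.32 and 0.22 TPM in libraries 1 to 3, the lowest level of the family in each. These values rested on 24, 20 and 9 expected counts, and the CPM of library 3, 0.555, had an exact 95% binomial interval of 0.254 to 1.05, against 1.47 with an interval of 0.943 to 2.19 in library 1. Library 3 was lowest. The intervals overlap, but overlap of separate intervals does not test a difference, and the difference of Socs1 between libraries was not tested.
Socs3 exceeded Socs1 in 3 of 3 libraries, by 6.92 ± 0.82 in log2(TPM + 0.1) (SD, n = 3), or 121-fold on that scale. The exact two-sided sign-flip permutation test over 3 libraries gave p = 0.25, the smallest it can give, so no pair could pass 0.05. Adjusted over the 5 pairs of relatives compared by the Benjamini-Hochberg method, this exact p was 0.312.

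Cish encodes CIS, which competes for STAT5 docking sites on cytokine receptors. It lies on chromosome 9 at 107296026-107302784 on the plus strand and had 1.53, 1.2 and 3.56 TPM in libraries 1 to 3 (2.10 ± 1.28, SD, n = 3). Library 3 stood above the other two, and without it the mean was 1.36 TPM. Parts of its exons, 261 and 479 bases, overlap Gm17040 and Gm17041 on the opposite strand, both with 0 counts in each library. The strand setting of the counting is not known, so reads of overlapping genes cannot be told apart. None of the other 9 genes shares exonic bases with another gene.
Socs2, the brake on growth hormone signalling, lies on chromosome 10 at 95385362-95417180 on the minus strand. It had 0.6, 0.54 and 0.63 TPM from 15, 10 and 12 expected counts, values that differed little between libraries but rested on few reads. A second deposited quantification of the same libraries put them further apart, at 2.26, 1.32 and 3.77 TPM. In the first, Cish exceeded Socs2 in 3 of 3 libraries, by 1.52 ± 0.70 in log2(TPM + 0.1), with an exact permutation p = 0.25 (adjusted 0.312). In the second quantification this difference turned round, to -0.13, as described with the Socs2 counts further on.

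Socs4 and Socs5 form a pair of relatives with long amino-terminal regions, known for limiting signalling of the epidermal growth factor receptor. Socs5, on chromosome 17 at 87107679-87137839 on the plus strand, had 5.14, 5.54 and 11.46 TPM (7.38 ± 3.54, SD, n = 3). Socs4, on chromosome 14 at 47276931-47296102 on the plus strand, had 2.08, 2.38 and 6.89 TPM (3.78 ± 2.69). Both were highest in library 3, and Socs4 averaged 2.23 TPM without that library. Socs5 exceeded Socs4 in 3 of 3 libraries, by 1.06 ± 0.29 in log2(TPM + 0.1) or 2.08-fold, with an exact permutation p = 0.25 (adjusted 0.312). Counts alone were closer: 484, 481 and 589 for Socs5 and 371, 368 and 739 for Socs4, with Socs4 the longer transcript and ahead in library 3.

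Socs6 and Socs7 form the other pair and are linked to the insulin and stem cell factor receptors and their adaptors. Socs6, on chromosome 18 at 88665224-88927481 on the minus strand, had 2.74, 3.25 and 6.63 TPM. Socs7, on chromosome 11 at 97362551-97398542 on the plus strand, had 3.05, 3.4 and 5.14 TPM. Socs7 was ahead in libraries 1 and 2 and Socs6 in library 3, and their difference of 0.05 ± 0.27 in log2(TPM + 0.1) was smaller than its spread (exact permutation p = 1, 1 of 3 libraries with Socs6 higher).

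Pias1, a SUMO ligase that also restrains NF-κB target genes, was the second most abundant of the 10 genes. It lies on chromosome 9 at 62878368-62987924 on the minus strand and had 12.56, 13.98 and 21.35 TPM (16.0 ± 4.72, SD, n = 3), a level with 76.1% of detected protein-coding genes below it. Pias4, another SUMO ligase of the family, lies on chromosome 10 at 81153266-81167923 on the minus strand and had 5.78, 9.42 and 8.27 TPM (7.82 ± 1.86). Pias4 was the only one of the 10 whose highest TPM was in library 2. Pias1 exceeded Pias4 in 3 of 3 libraries, by 1.01 ± 0.41 in log2(TPM + 0.1) or 2.01-fold, with an exact permutation p = 0.25 (adjusted 0.312). In the second quantification the difference was 0.23, or 1.17-fold. The relatives Pias2 and Pias3 averaged 8.37 ± 2.69 and 5.85 ± 2.52 TPM in the first quantification, near Pias4. In the second they averaged 11.9 and 5.51 TPM, below Pias4 at 17.4.

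The order of mean levels was Socs3, Pias1, Pias4, Socs5, Socs6, Socs7, Socs4, Cish, Socs2 and Socs1. In the first quantification, 6 of the 9 neighbouring pairs in that order kept their order in 3 of 3 libraries with a difference larger than its SD. The exceptions were Pias4 and Socs5, in order in 2 of 3 libraries, Socs6 and Socs7, in order in 1 of 3, and Socs7 and Socs4, in order in 2 of 3. Of these 6 pairs, 2 turned round in the second quantification, in 3 of 3 libraries each: Socs5 minus Socs6 was -0.26 ± 0.11 in log2(TPM + 0.1), with means of 7.33 and 8.63 TPM, and Cish minus Socs2 was -0.13 ± 0.07. Ranks of Socs3, Pias1, Socs6, Cish, Socs2 and Socs1 among the 10 were the same in every library of the first quantification.
The protein-coding genes whose level over the 3 libraries lay nearest to that of Socs3 were Creb5, Sav1 and Ccrl2. Likeness was the largest difference in log2(TPM + 0.1) in any library, and it was 0.09, 0.15 and 0.18 for these genes, over 22018 genes compared. In all, 162 genes lay within 1.5-fold of Socs3 in every library.

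Library 3 gave the highest TPM for 8 of the 10 genes. The median detected gene deviated from its own mean by -0.37, -0.14 and 0.52 in log2(TPM + 0.1) in libraries 1 to 3. Annotated genes shorter than 300 nt, which carry much TPM on few reads, held 72.9%, 66.3% and 56.7% of TPM in the 3 libraries. Rescaled over longer genes alone, Socs5 had 19.0, 16.4 and 26.5 TPM, and Pias1 46.4, 41.5 and 49.4 TPM, so the lead of library 3 narrowed for both. Socs3 then had 183, 88.4 and 163 TPM, with library 1 ahead. Socs4, at 7.69, 7.06 and 15.9, and Cish, at 5.65, 3.56 and 8.23, stayed highest in library 3.

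The spread between libraries was read from CPM with TMM scaling, a factor per library that brings most genes to the same level. Socs5, Socs6, Socs7 and Pias1 spanned 0.21, 0.29, 0.24 and 0.20 in TMM-scaled log2 CPM between their lowest and highest library, and 0.36, 0.48, 0.43 and 0.29 without TMM scaling. Cish, Socs3, Socs4 and Pias4 spanned 1.00, 0.97, 0.92 and 0.92 with TMM scaling, wider than 82.3% to 85.8% of the 13309 genes tested, whose median span was 0.51. Without TMM scaling these 4 spanned 1.15, 0.94, 1.08 and 0.77. The direction differed between these 4 genes: library 1 was highest for Socs3, library 2 for Pias4, and library 3 for Socs4 and Cish. A quasi-likelihood test in edgeR asked whether a gene varied more than genes of its abundance. It called 0 of the 8 genes that passed the low-count filter at an adjusted p of 0.05. On simulated counts this test recovered 31 of 100 genes changed 4-fold in library 1 and 96 of 100 changed 8-fold. The spans of the 8 genes, at most 1.00 in log2 CPM, were smaller than either change. The lack of calls therefore cannot show that their spread was ordinary. Over all genes 0% were called, 0 of 13309. An unadjusted edgeR p under 0.05 was found for 655 genes, close to the number that this cutoff passes when no gene varies more than its peers. DESeq2 marked 54 genes as dispersion outliers, none of them among the 10. Unadjusted edgeR p-values were lowest for Socs4 (0.0564) and Socs3 (0.067), each with an adjusted p of 0.992. Socs1 and Socs2 did not pass the filter and were not tested.

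**Figure D2:**
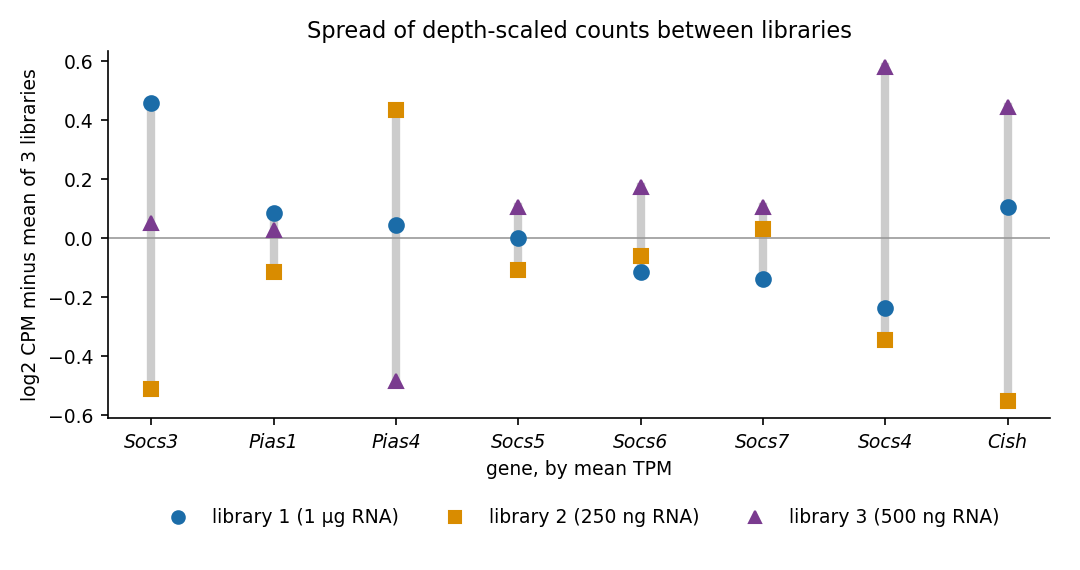
TMM-scaled log2 CPM of each gene in the 3 libraries (points) minus its mean over them, for the 8 genes tested, ordered by mean TPM. Grey bars join the lowest and highest library, and 4 genes span 0.92 to 1.00 while the other 4 span 0.20 to 0.29.

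Transcript models showed which forms of each gene the reads were assigned to. The share of a gene's TPM given to each transcript is deposited as a percent. Socs3 was almost all the protein-coding Socs3-201, with 99.2%, 100% and 100% in libraries 1 to 3, and Socs4-201 held 98.3% ± 2.96 (SD, n = 3) of Socs4. The second quantification left Socs3-201 at 97.4% but gave Socs4-201 67.3%, 63.6% and 87.5%, and its posterior mean in the first was 85.3%.

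Cish showed the opposite pattern. Its main model was the noncoding processed transcript Cish-202, which took 79.9%, 67.9% and 84.6% of the gene's TPM (77.5% ± 8.58, SD, n = 3), while the protein-coding Cish-204 took 22.0% ± 8.83. Cish-202 is 4697 nt long and 59.0% of it, 2772 bases, lies in introns of the coding models. Most of that is the long stretch that follows the first sequence shown above. The full coding model Cish-201 had 0.5% of TPM. The second quantification gave Cish-202 a mean share of 76.7%, and the posterior mean of the first gave 57.9%. The tables do not separate unspliced RNA of the gene from this annotated transcript.

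Pias4 was split between the coding Pias4-201, with 34.9% ± 2.06, and 3 transcripts annotated as retained introns. Pias4-202 took 41.7%, 41.3% and 35.6%, a mean of 39.5% ± 3.44, and 63.0% of its bases lie in an intron of the coding models. Pias4-205 took 14.3% ± 7.50 and Pias4-203 11.2% ± 2.74. In expected counts, Pias4-201 was ahead with 61.1% and Pias4-202 had 28.1%, since TPM divides by length and Pias4-202 is the shorter model. The second quantification gave Pias4-201 a lower share of TPM, 16.5%, and Pias4-202 a share of 41.3%. In its counts Pias4-201 had 39.6% on average and Pias4-202 had 41.9%, so the lead of Pias4-201 was not kept. Pias1 had 22.7% ± 1.09 of its TPM on the retained-intron transcript Pias1-203, a share that lay between 21.8% and 23.9% in the 3 libraries, beside 50.6% ± 5.26 on Pias1-202 and 20.99% ± 5.29 on Pias1-201.

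**Figure D3:**
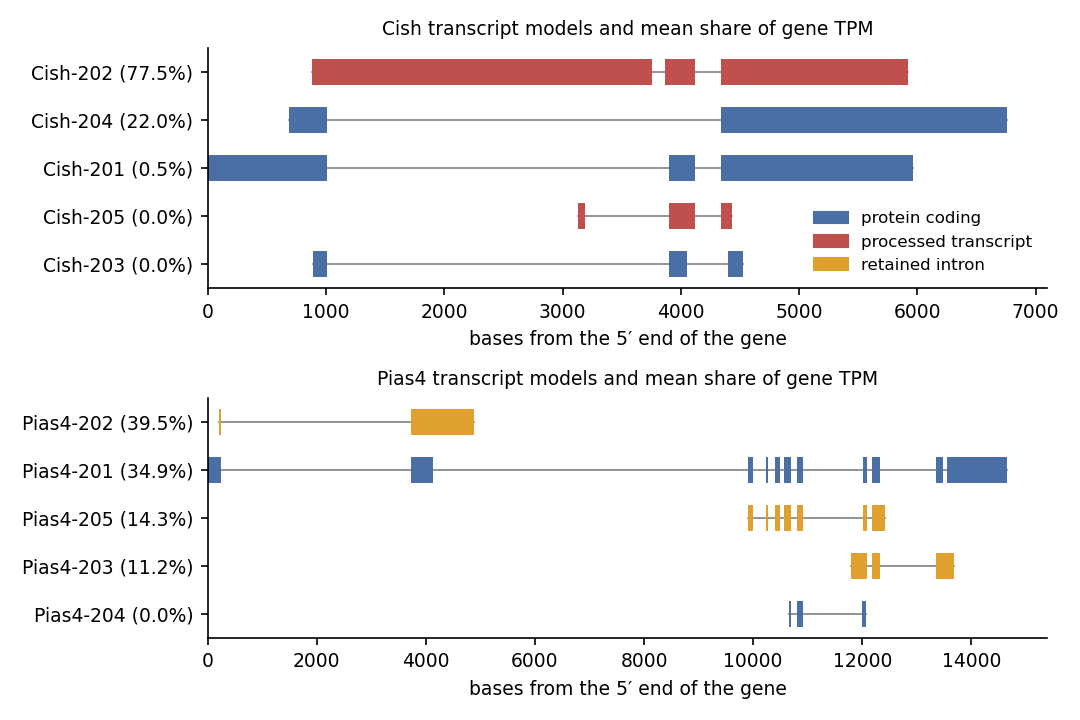
Exons (boxes) and introns (lines) of the annotated transcripts of Cish and Pias4, with the horizontal axis in bases from the 5′ end of the gene and the mean share of gene TPM beside each name. Cish-202 (77.5%) covers most of the first intron of the coding models, and Pias4-202 (39.5%) extends its second exon into the intron after it.

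Socs5 had 63.5% ± 6.99 of its TPM on the protein-coding Socs5-201 and 32.1% ± 6.23 on the noncoding Socs5-202, of whose 2019 bases 87.6% lie in introns of the coding models. Library 3 had the largest Socs5-202 share, 39.1%, against 27.2% and 29.9% in libraries 1 and 2. Socs7 had 70.7% ± 10.4 on the coding Socs7-201, and the noncoding Socs7-202 of 506 nt took 29.4% ± 10.4 of TPM from 1.83% of the gene's counts. Socs6 was divided among 3 coding models, Socs6-201 (40.1%), Socs6-202 (34.8%) and Socs6-203 (19.2%). This division was not kept in the second quantification, where the 3 models had 14.6%, 1.19% and 25.6%. Socs1 had 92.0% ± 13.9 on Socs1-201, from few reads, and 44.4% in the second quantification. Socs2 reads were few and scattered over several of its 14 annotated transcripts. The model of the highest mean share, Socs2-203, had 0%, 66.3% and 0% in libraries 1 to 3. In the second quantification another model, Socs2-206, was highest in each library, with 38.3%, 42.7% and 39.9%. The other Socs2 models with a mean share of at least 10% were Socs2-210 (20.7%), Socs2-207 (14.7%), Socs2-202 (14.4%) and Socs2-201 (12.2%).

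Summed over all transcripts of a gene that are not annotated as protein coding, here called noncoding, the share of TPM was 77.5% ± 8.72 for Cish, 66.3% ± 21.9 for Socs2 and 65.1% ± 2.08 for Pias4. It was 32.1% for Socs5, 29.4% for Socs7, 22.7% for Pias1, 6.05% for Socs6 and 0.282% for Socs3. Socs1 and Socs4 have no annotated noncoding transcript. Among 9017 detected protein-coding genes with such a transcript the median share was 45.0%, with quartiles of 24.6% and 63.9%. By mean share, Cish, Socs2 and Pias4 thus lay above the upper quartile, with 88.5%, 77.7% and 76.3% of these genes below them. Pias1, Socs6 and Socs3 lay below the lower quartile, and Socs5 and Socs7 between the quartiles. Single libraries could lie elsewhere. In library 1 Socs2 was at 42.4%, below the median, and Pias4 at 62.8%, below the upper quartile. Socs7 in library 3 was at 19.6%, below the lower quartile. The Socs2 shares rested on 15, 10 and 12 expected counts in libraries 1 to 3. In the second quantification, where the median over these genes was 54.8%, Socs6 had 23.7% and Socs7 47.8%.

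**Figure D4:**
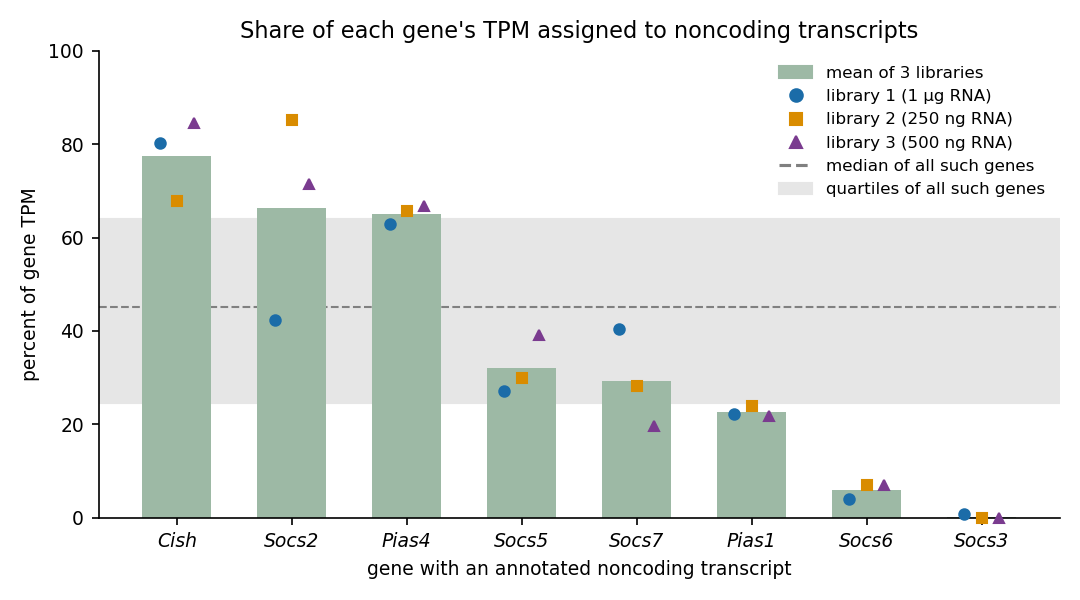
Percent of each gene's TPM assigned to transcripts not annotated as protein coding, as the mean of 3 libraries (bars) and in each library (points), for the 8 genes with such a transcript. The dashed line and grey band mark the median of 45.0% and the quartiles of 24.6% and 63.9% over 9017 detected protein-coding genes. Cish, at 67.8% to 84.6%, stays above the band in each library.

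The second deposited quantification of the same libraries assigned more counts to most genes, with a median ratio to the first of 1.61 over detected protein-coding genes. Socs2 stood out: it had 123, 110 and 170 estimated counts in the second quantification, against 15, 10 and 12 in the first, ratios of 8.21, 11.0 and 14.2. Of the detected protein-coding genes, 98.2% had a lower ratio than Socs2. The first quantification also gives a credible range for each TPM, and the Socs2 value lay below its own range in 3 of 3 libraries, for example at 0.6 TPM in library 1, where the range was 0.896 to 2.50 TPM. The same held for 3.31% of detected protein-coding genes (364 of 10983). The other 9 genes lay inside their ranges in every library. The Socs2 level is therefore uncertain by several fold: its mean was 0.59 TPM in the first quantification, 1.97 TPM as a posterior mean and 2.45 TPM in the second.
For Pias4 and Socs6 the second quantification gave 17.4 and 8.63 TPM, 2.22 and 2.05 times the first. Socs3 had 46.0 ± 19.3 TPM in the second quantification and 50.0 ± 20.4 in the first, 0.919 times the first. The median TPM ratio over detected protein-coding genes was 1.41. The count ratio of Socs3 was 1.18, and 2.61% of these genes had a lower one.

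**Figure D5:**
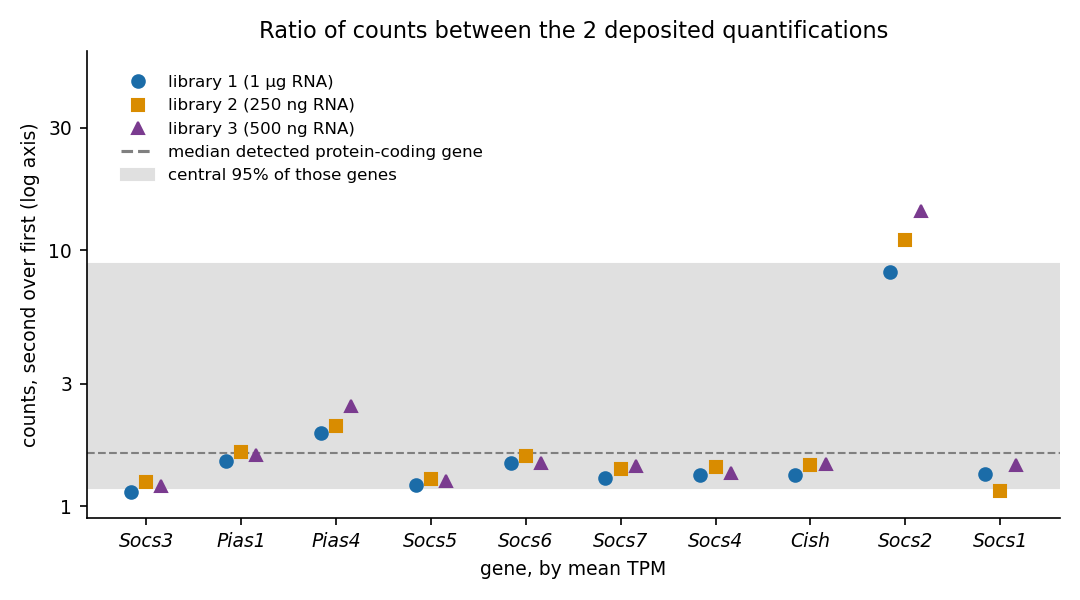
Ratio of estimated counts in the second quantification to expected counts in the first (vertical log axis) for each gene and library (points), ordered by mean TPM. The dashed line marks the median ratio of 1.61 over detected protein-coding genes and the grey band their central 95%. Socs2 lies at 8.21 to 14.2, apart from the other 9 genes, which lie below 3.

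Genes for the kinases and STATs on which SOCS and PIAS proteins act had higher median levels than the SOCS family. All 4 JAK kinases were detected, with a median of 20.4 ± 4.45 TPM (SD, n = 3). They ran from Tyk2 at 31.0 to Jak2 at 6.95 TPM in the first quantification. In the second, Jak1 was highest, at 84.0 TPM against 34.6 for Tyk2. All 7 STAT genes were detected, with a median of 65.6 ± 6.94 TPM. Stat3, the STAT that signals below the interleukin 6 and interleukin 10 receptors, was highest at 82.7 ± 24.1, and Stat4 was lowest at 0.633 ± 0.452, or 0.38 without library 3.
Of 23 cytokine receptor genes, 19 were detected, with a median of 16.7 ± 5.28 TPM. They ran from Il10ra at 107.8 to Prlr at 0.00333, which had 1 count in library 2 and 0 elsewhere. In the second quantification Csf2rb was highest, at 183.3 TPM against 105.0 for Il10ra. Epor was lowest there, at 0.517 TPM against 2.56 for Prlr. Of 15 genes for cytokines that use these receptors, 5 were detected and 4 had 0 counts in every library. Their median was 0.193 TPM, and Il10 was highest at 45.1 ± 35.5, or 24.7 without library 3.

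The SOCS box partners, which form the ligase that SOCS proteins recruit, were all detected but uneven, with a median of 7.28 ± 1.34 TPM over 5 genes. Arih2 was highest at 165.9 ± 55.3 TPM, and Rnf7, the RING subunit that pairs with cullin 5, was lowest at 0.937 ± 0.546. All 12 SUMO pathway genes were detected, with a median of 15.9 ± 4.40 TPM. Sumo3, which encodes a form of the modifier itself, had the lowest mean, 4.88 TPM, or 2.85 without library 3. In the second quantification Sae1 was lowest, at 10.6 TPM against 11.0 for Sumo3. The 9 other brakes on JAK and STAT signalling, phosphatases, adaptors and ubiquitin enzymes, were all detected, with a median of 17.4 ± 5.75 TPM. They ran from the phosphatase gene Ptprc at 232.0 to the interferon receptor brake Usp18 at 4.27. Usp18 was not lowest in library 1, with 5.01 TPM against 3.68 for Ptpn11, nor in the second quantification, with 7.71 against 6.62. Of the 10 SOCS and PIAS genes, Socs3 and Pias1 had a mean of at least 10 TPM, as did 7 of these 9 other brakes and 4 of the 7 STAT genes. Among all 10983 detected protein-coding genes, 3659 reached that mean.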

How the data were processed

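Chromatin RNA of 1 group of 3 lipid A-treated macrophage libraries was analysed, as numbered in the labels. The authors deposited expected counts and TPM per gene and per transcript, with posterior means, per the file headers. Each transcript's share of its gene is a percent, per the file headers. The upper credible bound of TPM was treated as a score, since the deposited values do not sum to a fixed total. Estimated counts and TPM of another quantification are in a further deposited transcript table, per the file headers. Per the deposited notes on the files, tables use build mm10 and GENCODE M21; the tools, their versions and whether counting used strand: not given in the sources used here. The authors' TPM has a fixed total and so holds no depth.

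The genes, pairs and lists were chosen with earlier results of these data known. Detection required a mean of 10 or more expected counts. All 10 genes were named; transcripts were named if highest in mean share or at 10% or more, list genes if highest or lowest in mean TPM, and the 3 genes nearest to Socs3. The 26345 entries outside the annotation (1.03%, 0.245% and 0.218% of expected counts) were left out. Rounded expected counts were tested for spread with edgeR 4.0.16 (R 4.3.3, filterByExpr, TMM, intercept-only quasi-likelihood, Benjamini-Hochberg over all genes), with DESeq2 1.42.0 as an alternative; the test was tried on simulated counts first. Differences between genes used log2(TPM + 0.1) within a library and an exact sign-flip permutation test. Other steps used scipy 1.17.1, pandas 2.3.3, numpy 2.4.6 and matplotlib 3.10.9 under Python 3.11.15. Alternatives were other pseudocounts, filters, scalings, the second quantification, posterior means and leaving out each library. Some items are not reported here.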

Additional observations from a re-analysis of the deposited data

How the results depend on the processing

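The count of genes past the spread test was 0 with RLE scaling and with robust estimation, 117 with no filter on low counts, 7 in the second quantification and 54 as DESeq2 dispersion outliers. Leaving out each library gave 0 to 49 genes, and none of the 10 SOCS and PIAS genes was called in any of these. Cish minus Socs2 reversed in the second quantification, to -0.13 in log2(TPM + 0.1), beside 1.52. Socs6 minus Socs7, 0.05 with all libraries, reversed to -0.26 on CPM without length, ran from -0.11 (without library 3) to 0.15 when each library was left out, and was 0.70 in the second quantification. The other 3 pairs kept their direction under 8 alternatives each, but their size moved: 5.22 to 7.30 for Socs3 minus Socs1, 0.15 to 1.23 for Socs5 minus Socs4 and 0.23 to 1.93 for Pias1 minus Pias4. The cause of these changes was not tested. The median TPM of the 8 SOCS genes was 10.3 after rescaling over genes of at least 300 nt, because the scale itself changes, and 2.61 to 4.35 when each library was left out. The number of genes detected was 8 to 10 under its 7 alternatives. Mean levels moved by more than the spread in 15 of 60 cases, 10 of them under that rescaling, and main transcript shares in 12 of 20. For the least abundant genes, depth limits precision: Socs1 and Socs2 rest on 9 to 24 expected counts a library. CPM without TMM scaling, chosen after seeing the data, moved 3 of 8 log2 CPM spans by over 1.5 times. No comparison of groups, paired or not, was possible because all libraries belong to 1 group.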
